A study of Homo sapiens with 12 samples.

Results

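The subject here is the inequality of the response to GDC-0994 between 2 anaplastic thyroid carcinoma cell lines: for each gene, the log2 change with the drug in KHM-5M minus the log2 change in TTA-1. All 12 of the 12 RNA-seq libraries enter that difference. KHM-5M carries BRAF V600E and was grown in RPMI-1640, and TTA-1 is labelled BRAF WT and was grown in DMEM, each with 10% fetal bovine serum. Cells of each line received 1 µM GDC-0994 or the solvent DMSO for 24 hours, which gives 4 groups of 3 libraries. BRAF genotype, culture medium and every other feature of the lines differ together, so a difference between the lines cannot be told apart by these causes. Each genotype is represented by 1 line, and the labels do not say whether the 3 libraries of a group came from separate cultures, so the p-values measure only the spread between these libraries.

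GDC-0994 is an inhibitor of the kinases ERK1 and ERK2, the last enzymes of the RAS-RAF-MEK-ERK cascade. BRAF V600E is an active form of the RAF kinase BRAF that feeds this cascade without RAS. Active ERK raises transcription of its own feedback inhibitors, the DUSP and SPRY genes, of the ETS factors ETV4 and ETV5 and of cyclin D1, and through cyclin D and the retinoblastoma protein it releases the E2F factors that drive genes of DNA replication.

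Library totals ran from 14952970 to 18389915 counts, and 16218 genes, 13260 of them protein coding, passed the filter on low counts. Levels are given as counts per 1000000 counts of the library with TMM scaling (CPM), changes as log2 ratios of GDC-0994 over DMSO with their standard error (±), and a gene was called at an edgeR adjusted p below 0.05. The thyroid follicular markers TG, TSHR, SLC5A5, NKX2-1 and DIO1 were each under 1 CPM on average in all 4 groups, so their defining transcripts were absent or nearly so in these lines. PAX8, a thyroid transcription factor, was at 203 to 219.7 CPM in KHM-5M DMSO and at 2.96 to 3.97 CPM in TTA-1 DMSO. Blood cell markers summed to at most 2.77 CPM in any library. Epithelial keratin KRT8 averaged 1537 CPM in KHM-5M DMSO and 1485 CPM in TTA-1 DMSO, and KRT18 489.7 and 629 CPM. The epithelial markers EPCAM, CDH1 and KRT19 averaged at most 5.21 CPM in these DMSO groups. Of the mesenchymal markers, vimentin, VIM, averaged 2041 and 1148 CPM, while fibronectin, FN1, averaged 3904 and 1.73 CPM. A pair of libraries stood apart in base composition: across 16211 genes the log2 ratio of a library to its group correlated with gene GC content at r = 0.44 in TTA-1 DMSO replicate 1 and at r = -0.46 in TTA-1 DMSO replicate 2, and the other 10 libraries lay between -0.3 and 0.33. The points of these correlations are genes, which share libraries and are not replicates.

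The response differed between the lines for 4527 genes, which is 27.9% of those tested. The change was higher in KHM-5M for 1995 genes (12.3%) and lower in KHM-5M for 2532 genes (15.6%), and the size of the change was larger in KHM-5M for 4169 and in TTA-1 for 358. The balance of directions turned with the scaling: upper quartile scaling gave 2403 higher and 2208 lower, so that 52.1% of calls were higher against 44.1%. Leaving out TTA-1 DMSO replicate 2 gave 2636 higher and 2550 lower. GDC-0994 changed 8069 genes in KHM-5M (49.8%) and 556 in TTA-1 (3.43%), the latter 259 to 2620 with 1 library left out at a time. Over all genes tested, the median size of the change was 0.41 in KHM-5M and 0.16 in TTA-1 on the log2 scale, with the same median standard error of 0.14 in each line. A call in 1 line and not in the other does not by itself show a difference: of 7663 genes called in KHM-5M and not in TTA-1, 3668 were not called for the difference, and of 150 called in TTA-1 and not in KHM-5M, 65 were not.

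The 4527 genes were sorted by what each line did. In opposite directions went 38 genes that rose in KHM-5M and fell in TTA-1 (0.234% of those tested) and 24 that fell in KHM-5M and rose in TTA-1 (0.148%). Called in KHM-5M but not in TTA-1, and called for the difference, were 3751 genes (23.1%), here said to have moved in KHM-5M alone. The reverse, moved in TTA-1 alone, held for 82 genes (0.506%). A further 170 genes (1.05%) moved in the same direction by unequal amounts, 162 of them more in KHM-5M and 8 more in TTA-1. Another 244 genes called for the difference and in KHM-5M had under 1 CPM in TTA-1, where no response was read, 3 showed the reverse, and 215 were called for the difference and in neither line.

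**Figure D1:**
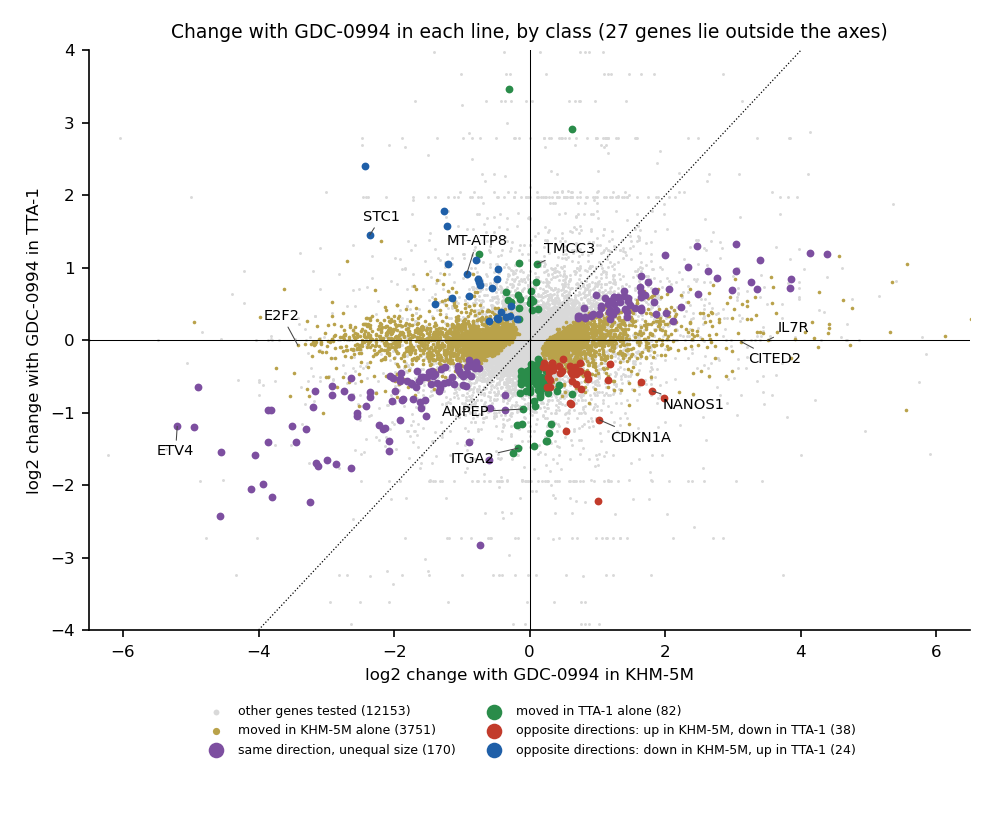
Log2 change with GDC-0994 in KHM-5M (horizontal axis) and in TTA-1 (vertical axis) for each gene tested, coloured by class; the dotted line marks equal change and 27 genes lie outside the axes. The 3751 genes that moved in KHM-5M alone lie along the horizontal axis, and the 38 and 24 genes that went in opposite directions sit in the lower right and upper left quadrants.

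Among the named genes that rose in KHM-5M and fell in TTA-1, ranked by the smaller of their 2 changes, CDKN1A (ENSG00000124762, GRCh38 chromosome 6, 36676460 to 36687339) came first. It encodes p21, an inhibitor of cyclin-dependent kinases. In KHM-5M it stood at 22.9, 22.2 and 23.8 CPM with DMSO and at 48, 49.2 and 43 CPM with GDC-0994. In TTA-1 it stood at 16.9, 14.9 and 15.5 CPM with DMSO and at 7.47, 8.22 and 6.36 CPM with the drug. The level was highest in treated KHM-5M and lowest in treated TTA-1. Treated and untreated libraries do not overlap in either line for any of the 16 opposite genes named by rule, because that was a condition for naming them. The log2 change was 1.03 ± 0.10 in KHM-5M (edgeR adjusted p = 2.32e-07) and -1.10 ± 0.12 in TTA-1 (edgeR adjusted p = 2.77e-05), a difference of 2.12 ± 0.15 (edgeR adjusted p = 1.81e-08). The gene stayed in this class with each of the 12 libraries left out in turn.

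NANOS1, a translational repressor of the Nanos family that binds RNA, rose from 3.38, 4.56 and 4.47 CPM to 15.7, 13.5 and 14.2 CPM in KHM-5M. In TTA-1 it fell from 13.2, 11.2 and 11.3 CPM to 8.8, 6.55 and 6.57 CPM. The untreated lines differed in level and the treated lines differed the other way. The difference of effects was 2.51 ± 0.22 (edgeR adjusted p = 1.73e-07), and 9 of 12 leave-outs kept the class. FAM84B (chromosome 8) stood at 19.2, 18.8 and 18.4 CPM in KHM-5M DMSO and at 56.1, 61 and 59.2 CPM with the drug. In TTA-1 it stood at 8.86, 10.9 and 7.76 CPM with DMSO and at 6, 6.42 and 6.01 CPM with the drug. It thus rose well clear of its controls in KHM-5M and fell by a smaller amount in TTA-1, by 0.58 on the log2 scale, with a difference of 2.22 ± 0.17 (edgeR adjusted p = 2.75e-08).

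The other 5 genes named in this direction moved less in TTA-1 or KHM-5M, with edgeR adjusted p of 0.0236 to 0.0401 in TTA-1. C1QTNF1, a secreted protein related to complement C1q, changed by 0.76 ± 0.15 in KHM-5M and by -0.67 ± 0.16 in TTA-1. TMEM102 changed by 0.61 ± 0.20 and -0.88 ± 0.21, with TTA-1 DMSO libraries at 14.8, 9.34 and 15.3 CPM and treated ones at 9.27, 6.89 and 5.25 CPM, so that the lowest control lay just above the highest treated library. DNAJC4, a J-domain co-chaperone, changed by 0.68 ± 0.10 and -0.60 ± 0.14. ALS2CL changed by 1.16 ± 0.13 and -0.55 ± 0.14, and TPGS1, a subunit of the tubulin polyglutamylase complex, by 0.86 ± 0.14 and -0.54 ± 0.14. Between 4 and 7 of the 12 leave-outs kept these 5 genes in the class, although each one's edgeR adjusted p for the difference was at or below 8.28e-04.

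Several further genes of the 38 were singled out after their values were seen because they belong to known groups or kept the class in all 12 leave-outs. CYR61, a matrix protein that is a standard target of the YAP and TEAD transcription regulators, stood at 541, 546 and 560.3 CPM in KHM-5M DMSO and at 958, 846 and 856 CPM with the drug. In TTA-1 it went from 1199, 977 and 1052 CPM to 756, 781 and 799 CPM. The gap between the lines was narrower with the drug, with a change of 0.69 ± 0.07 in KHM-5M and -0.47 ± 0.07 in TTA-1. ANKRD1, another YAP and TEAD target, changed by 0.60 ± 0.09 from about 8 CPM in KHM-5M and by -0.36 ± 0.07 from 246 to 276 CPM in TTA-1. POLD4, the small subunit of DNA polymerase delta, changed by 0.53 ± 0.12 and -1.26 ± 0.23, PNPLA2, the adipose triglyceride lipase, by 0.85 ± 0.08 and -0.46 ± 0.08, and MICAL2, which oxidises actin, by 0.61 ± 0.07 and -0.44 ± 0.07. The ERK feedback list held 2 of the 38: the MAP kinase phosphatase gene DUSP1 changed by 0.34 ± 0.09 and -0.39 ± 0.09, and TRIB1, a pseudokinase, by 0.67 ± 0.10 and -0.37 ± 0.10, the latter kept in 2 of 12 leave-outs.

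Of the 8 genes named in the other direction, STC1 (ENSG00000159167, GRCh38 chromosome 8, 23841915 to 23854807) had the widest difference of effects. It encodes the secreted glycoprotein stanniocalcin-1. It stood at 12.9, 13.6 and 12.4 CPM in KHM-5M DMSO and at 2.06, 2.6 and 2.95 CPM with GDC-0994. In TTA-1 it stood at 1.04, 0.658 and 0.568 CPM with DMSO and at 1.6, 2.14 and 2.49 CPM with the drug. Levels far apart without the drug came to a similar range with it. The change was -2.36 ± 0.19 in KHM-5M and 1.45 ± 0.28 in TTA-1, and their difference was -3.81 ± 0.34 (edgeR adjusted p = 1.89e-07).

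SYNE2 encodes nesprin-2, a protein of the outer nuclear membrane. In KHM-5M it was at 47, 58 and 54.8 CPM with DMSO and at 21.9, 23.5 and 27.1 CPM with the drug, and in TTA-1 at 34.2, 50.4 and 49.8 CPM and at 69.3, 65.9 and 66.3 CPM. Its transcript was thus lowest in treated KHM-5M and highest in treated TTA-1, with a difference of effects of -1.73 ± 0.18. COBLL1, related to the actin nucleator cordon-bleu, was at 7.78, 6.52 and 6.19 CPM and then 2.43, 2.6 and 2.82 CPM in KHM-5M. In TTA-1 it was at 35.5, 53.7 and 44.2 CPM and then 58.9, 66.4 and 63 CPM. The TTA-1 groups lay close together, and 7 of 12 leave-outs kept COBLL1 in the class. HSD3B7, an enzyme of bile acid synthesis, changed by -0.47 ± 0.14 and 0.98 ± 0.20, MRPL41, a protein of the mitochondrial ribosome, by -0.43 ± 0.10 and 0.39 ± 0.09, and SAMHD1, which breaks down deoxynucleotide triphosphates, by -0.35 ± 0.08 and 0.32 ± 0.08, kept in 11, 6 and 4 leave-outs in that order.

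For 2 genes of this direction the reads could not be assigned with certainty. RPS23, a protein of the small ribosomal subunit with many processed copies, went from 658, 647 and 599 CPM to 506, 452 and 412 CPM in KHM-5M and from 392, 388 and 391 CPM to 576, 752 and 785 CPM in TTA-1. Over the list of 29 other cytosolic ribosomal proteins, 1 was called higher and 1 lower for the difference. The shares over all genes tested were 12.3% and 15.6%. The median difference of the list was 0.08. MT-ATP8, a subunit of the mitochondrial ATP synthase, went from 15.1, 12.5 and 17.6 CPM to 8.23, 6.86 and 8.59 CPM in KHM-5M and from 9.57, 11 and 12.5 CPM to 19.6, 20.4 and 22.3 CPM in TTA-1. Its gene overlaps MT-ATP6, which changed by -0.02 ± 0.10 and 0.13 ± 0.10. Both RPS23 and MT-ATP8 kept the class in all 12 leave-outs.

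**Figure D2:**
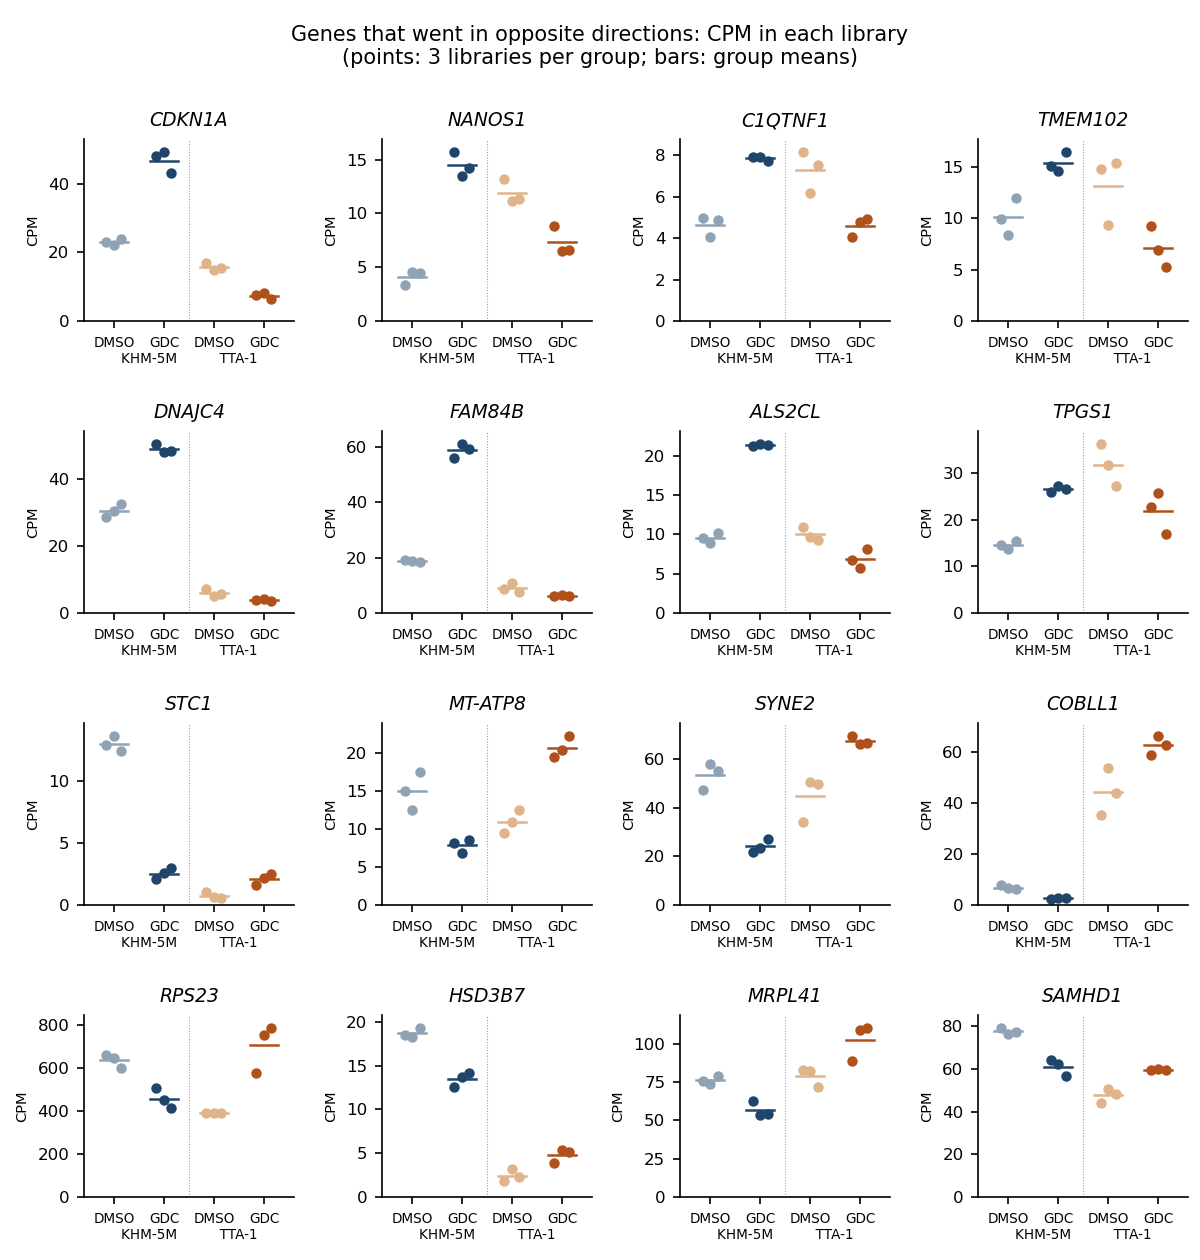
CPM in each of the 12 libraries for the 16 named genes that went in opposite directions; points are libraries, horizontal bars are group means and each vertical axis starts at 0. The upper 8 panels rise from DMSO to GDC-0994 in KHM-5M and fall in TTA-1, as CDKN1A does from 22.2 to 23.8 up to 43 to 49.2 CPM and from 14.9 to 16.9 down to 6.36 to 8.22 CPM, and the lower 8 do the reverse.

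Of the 38 genes, 32 were protein coding, 5 were pseudogenes and 1 was antisense, and of the 24, 15 were protein coding and 9 were pseudogenes, beside 13260 protein-coding genes among the 16218 tested. The difference in kind between the sets was not tested. Reads of a pseudogene cannot be separated with certainty from those of its parent, and the library kit does not mark strand, so antisense reads cannot be told from those of the partner gene. The 38 had median changes of 0.61 and -0.46, and the 24 had -0.74 and 0.74. Both changes were at least 0.5 in size for 13 genes of each set, and at least 1 for 2 and 5. As these sets were cut from the 3 tests themselves, their sizes of change are a description.

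The opposite sets rested on single libraries to a large degree. Leaving out 1 library at a time gave from 16 to 256 genes up in KHM-5M and down in TTA-1 and from 9 to 148 of the reverse, and 7 of the 38 and 6 of the 24 kept their class in all 12 leave-outs. The highest counts came without TTA-1 DMSO replicate 2, where GDC-0994 changed 2620 genes in TTA-1, and the lowest without TTA-1 GDC-0994 replicate 3 (16) and without TTA-1 DMSO replicate 3 (9). Without both TTA-1 DMSO replicates 1 and 2, the libraries that stood apart in base composition, 34 and 20 genes were found, of which 15 and 14 were in the sets from all libraries. That leaves 1 TTA-1 DMSO library, which the fit assumes to vary like the libraries of the other groups. The median GC content was 55.1% for the 38 genes and 46.2% for the 24, beside 48.3% for all genes tested. With a GC and length trend taken out of each library, 34 of the 38 and all 24 stayed in their class. The part of base composition in the remaining calls was not tested.

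**Figure D3:**
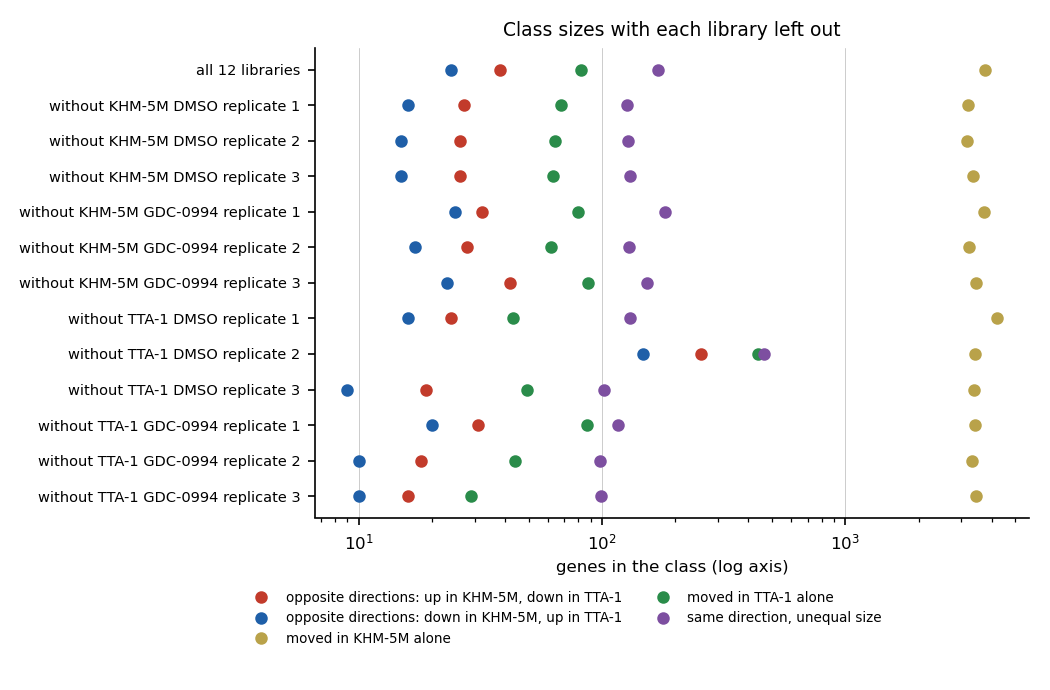
Number of genes in each of the 5 classes (log axis) with all 12 libraries and with each library left out. Sizes of the class that moved in KHM-5M alone lie between 3159 and 4185, while the smaller classes spread widely and are largest without TTA-1 DMSO replicate 2.

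Most genes of the MAPK output list fell in both lines, and by more in KHM-5M. Of the 10 genes of the MAPK output list, a published readout of the pathway's activity, 9 fell in KHM-5M and 8 in TTA-1, with medians of -2.80 and -0.89. For the difference edgeR called 9 lower in KHM-5M and 0 higher, with 1 higher at an unadjusted p below 0.05 and 0 by DESeq2. Over all genes tested 15.6% were lower and 12.3% higher, and GDC-0994 changed 49.8% in KHM-5M and 3.43% in TTA-1, in either direction. ETV4 went from 128, 123 and 129 CPM to 3.22, 4.04 and 3.01 CPM in KHM-5M and from 26.2, 21.8 and 26.5 CPM to 12.1, 11.8 and 8.85 CPM in TTA-1. CCND1, which encodes cyclin D1, went from 532, 547 and 510.0 CPM to 83.1, 81.3 and 73.6 CPM and from 220.1, 229.8 and 204 CPM to 139.8, 139 and 124 CPM. Each thus fell below its controls in every treated library of both lines, and the differences of effects were -4.01 ± 0.19 for ETV4 and -2.04 ± 0.11 for CCND1 (edgeR adjusted p = 2.83e-10). DUSP6, the ERK phosphatase, fell by 4.11 in KHM-5M and by 2.05 in TTA-1, the latter from at most 2.96 CPM. Without TTA-1 GDC-0994 replicate 2 its difference was -1.2 and was not called (edgeR adjusted p = 0.217). The feedback inhibitor SPRY2 changed by -2.86 ± 0.10 and by -0.39 ± 0.15 and was not called in TTA-1 (edgeR adjusted p = 0.2). The members with the smallest called differences were EPHA2, an ephrin receptor, at -1.55 ± 0.08 and -0.82 ± 0.08, and PHLDA1 at -2.63 ± 0.08 and -1.77 ± 0.08. EPHA4, the exception, was at most 1.47 CPM in any library, and its difference was not called (edgeR adjusted p = 0.103).

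Beyond that list the early ERK targets split. Of 22 immediate-early and AP-1 genes, 6 had a higher and 6 a lower change in KHM-5M, and the median difference, -0.08, ran from -0.13 to 0.06 over the alternative settings. FOSL1, a FOS family member, fell in both lines, from 551 to 586 CPM down to 33.2 to 36 CPM in KHM-5M and from 158 to 278 CPM down to 60.7 to 93.6 CPM in TTA-1. The stress factor ATF3 rose in KHM-5M by 1.15 ± 0.11 and changed by -0.01 ± 0.10 in TTA-1, and KLF6 fell by 0.77 in KHM-5M and changed by 0.07 ± 0.06 in TTA-1. Of 18 further ERK feedback genes, 10 fell and 5 rose in KHM-5M, and 8 fell and 1 rose in TTA-1. For the difference 4 were higher and 4 lower, beside 12.3% and 15.6% of all genes tested. SPRED2, an inhibitor of RAF activation, changed by -1.13 ± 0.09 and -0.19 ± 0.09, and HBEGF, an EGF receptor ligand, by 0.77 ± 0.10 and -0.17 ± 0.12. Among 15 members of the cascade itself, 4 had a lower change in KHM-5M, 11 were not called, and the median difference of -0.05 ran from -0.10 to 0.07 over the alternative settings. MAP2K1, which encodes MEK1, was one of the 4, at -0.79 ± 0.07 and -0.17 ± 0.07.

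The lists of recombination repair, replication and mitosis had the widest median differences of the 37 lists, at -2.56, -2.33 and -2.22. In bulk RNA, fewer cells in a cycle phase and less transcript per cell cannot be told apart. Of 35 genes that license and run DNA replication, 35 had a lower change in KHM-5M, beside 15.6% of all genes tested, with a median of -2.35 in KHM-5M and 0.01 in TTA-1. In TTA-1 the 95% interval of the change lay within -0.5 to 0.5 for all 35. There edgeR called 0 of them, beside 3.43% of all genes tested. At an unadjusted p below 0.05 there were 2 falls and 0 rises, and DESeq2 called 0. MCM4, a subunit of the replicative helicase, was at 516, 510.3 and 487 CPM with DMSO and at 77.9, 69.7 and 76.7 CPM with the drug in KHM-5M. In TTA-1 it was at 492, 510.2 and 493 CPM and at 516, 517 and 511 CPM. Untreated levels were alike in the lines and only the treated KHM-5M libraries were low, with a difference of -2.80 ± 0.09 (edgeR adjusted p = 4.10e-12). ORC1, the largest subunit of the origin recognition complex, was at 43.1, 43 and 39.4 CPM and then 6.12, 4.21 and 5.09 CPM in KHM-5M, and at 97.5, 111 and 107 CPM and then 110.4, 113 and 114 CPM in TTA-1. CDC6, which loads the helicase, changed by -2.88 ± 0.08 and 0.06 ± 0.07, and MCM10, a replication initiation factor, by -3.15 ± 0.09 and -0.03 ± 0.07.

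The regulators upstream of replication moved the same way. E2F2, one of the activating E2F factors, was at 20.5, 22.9 and 22.4 CPM with DMSO and at 2, 2.43 and 1.66 CPM with the drug in KHM-5M, and in TTA-1 at 25.1, 19.9 and 22.6 CPM and then 23.6, 20.4 and 20.3 CPM. CDC25A, the phosphatase that activates CDK2, was at 31.3, 30.8 and 32.1 CPM and then 3.69, 3.87 and 4.17 CPM in KHM-5M, and at 54.9, 53 and 52.5 CPM and then 48.3, 45.8 and 49.4 CPM in TTA-1. The treated KHM-5M libraries were the low ones for each gene, and the TTA-1 groups overlapped for E2F2 but not for CDC25A. The TTA-1 change of CDC25A was -0.16 ± 0.08 (edgeR adjusted p = 0.299), and the differences were -3.35 ± 0.20 for E2F2 and -2.84 ± 0.12 for CDC25A. Over 20 regulators of G1 and S phase, 16 had a lower change in KHM-5M, 1 a higher one and 3 were not called. The shares over all genes tested were 15.6% lower and 12.3% higher. E2F7, a repressor among the E2F factors, changed by -3.08 ± 0.10 and -0.03 ± 0.09, and the 1 higher gene was RBL2, which encodes the pocket protein p130, at 0.47 ± 0.11 and -0.07 ± 0.12.

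The 250 bases before the RefSeq start of E2F2 and CDC25A are shown because each gene moved in KHM-5M alone and each window holds 1 match to the E2F site, in capitals. Both windows are from GRCh38.p14 on the minus strand and are written 5′ to 3′, at chr1:23531234-23531483 for E2F2 and chr3:48188418-48188667 for CDC25A.
E2F2: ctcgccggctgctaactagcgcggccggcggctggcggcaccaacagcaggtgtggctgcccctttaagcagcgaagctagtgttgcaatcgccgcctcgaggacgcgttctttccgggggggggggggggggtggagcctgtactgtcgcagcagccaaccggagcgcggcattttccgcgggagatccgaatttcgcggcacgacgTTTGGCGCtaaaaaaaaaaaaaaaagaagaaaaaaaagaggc
CDC25A: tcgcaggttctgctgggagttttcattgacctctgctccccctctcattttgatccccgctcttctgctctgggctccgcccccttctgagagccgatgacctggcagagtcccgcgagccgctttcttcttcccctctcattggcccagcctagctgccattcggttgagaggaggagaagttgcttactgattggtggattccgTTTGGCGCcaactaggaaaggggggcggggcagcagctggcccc
The match begins at base -42 from the start in E2F2 and at base -44 in CDC25A. The E2F site was searched as TTTCCCGC or TTTGGCGC on both strands. It was present in 1.96% of all 27305 promoters in the table and in 333 of 10865 matched promoters of protein-coding genes tested (3.06%). Among protein-coding genes that fell in KHM-5M alone with a difference of at least 1, it was in 46 of 608 matched promoters (7.57%), and in the replication list in 11 of 31 (35.5%). It was in 1 of 83 promoters of genes that fell in both lines by unequal amounts (1.2%), in 0 of 46 of those that fell in TTA-1 alone and in 0 of 14 of the recombination repair list. The cell cycle homology region, searched as TTTGAA on both strands, was in 103 of the 608 (16.9%), in 8.23% of matched promoters of protein-coding genes tested and in 13.6% of all 27305 promoters. A match is a string of letters and not a bound site.

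Mitosis genes followed. Of 34, 34 had a lower change in KHM-5M, beside 15.6% of all genes tested, with medians of -2.11 and 0.06. In TTA-1 edgeR called 0 of the 34, beside 3.43% of all genes tested. At an unadjusted p below 0.05 there were 4 rises and 4 falls, and DESeq2 called 1 rise. TPX2, a spindle assembly factor, was at 606, 592 and 569 CPM and then 127, 128 and 127 CPM in KHM-5M, and at 492, 527 and 518 CPM and then 534, 542 and 519.7 CPM in TTA-1. The treated KHM-5M libraries were lowest, and the TTA-1 groups overlapped in range. SPC24, of the kinetochore complex NDC80, changed by -3.14 ± 0.12 and 0.19 ± 0.11, and UBE2C, the E2 enzyme that serves the anaphase-promoting complex, by -2.60 ± 0.08 and -0.12 ± 0.08. All 15 tested genes of DNA repair by recombination had a lower change in KHM-5M, with medians of -2.39 and 0.03, and 0 were called in TTA-1 by edgeR or DESeq2, with 2 rises at an unadjusted p below 0.05. RAD54L, a recombination ATPase, went from 24.1, 28.5 and 24.1 CPM to 2.53, 2.55 and 2.64 CPM in KHM-5M and from 54.2, 46.7 and 53.6 CPM to 48.5, 53.1 and 48 CPM in TTA-1. PSMC3IP, the recombination partner HOP2, changed by -3.23 ± 0.17 and -0.05 ± 0.13. CLSPN, the checkpoint mediator claspin, changed by -2.97 ± 0.12 and 0.21 ± 0.10, and DTL, which recruits replication proteins for degradation, by -3.11 ± 0.09 and 0.02 ± 0.08.

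The inhibitors of cyclin-dependent kinases did not move as a group. Of 7 tested, 3 had a higher change in KHM-5M, 2 a lower one and 2 were not called. The shares over all genes tested were 12.3% higher and 15.6% lower. Besides CDKN1A, the higher ones were CDKN2A, which encodes p16 and ARF, at 0.58 ± 0.12 and -0.44 ± 0.18, and CDKN1B, which encodes p27, at 0.60 ± 0.10 and 0.10 ± 0.12. CDKN1B was named after its values were seen. CDKN2C, which encodes p18, fell from 98 to 111 CPM to 35.6 to 37 CPM in KHM-5M and changed by 0.17 ± 0.11 in TTA-1, and CDKN2D, which encodes p19, changed by -1.43 ± 0.12 and 0.08 ± 0.15. Replication-dependent histone genes stood against the other S phase genes: 8 of 9 had a higher change in KHM-5M, with medians of 1.74 and 0.08. HIST1H2AC went from 19.6, 18.9 and 22.9 CPM to 82.9, 76.2 and 78.2 CPM in KHM-5M and from 18.7, 23.2 and 17.2 CPM to 21.6, 22.5 and 21.1 CPM in TTA-1. Most histone transcripts lack a poly-A tail and mRNA was selected on poly-T beads, so these values are of the polyadenylated part, and reads may be shared between near-identical histone genes.

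Growth-related lists were lower in KHM-5M by less. Of 30 ribosome biogenesis genes, 22 had a lower and 0 a higher change in KHM-5M, at medians of -0.55 and -0.07, with 0 higher also by DESeq2 and at an unadjusted p below 0.05. NOP56, a core protein of box C/D ribonucleoproteins, went from 280.0, 275 and 262 CPM to 124, 108 and 115 CPM in KHM-5M and changed by -0.01 ± 0.07 in TTA-1. Of 29 genes of serine synthesis, amino acid supply and the ATF4 response, 14 were lower and 3 higher. Over all genes tested 15.6% were lower and 12.3% higher, so the higher share was near the background. PSAT1, an enzyme of serine synthesis, changed by -1.17 ± 0.07 and 0.10 ± 0.07, while NUPR1, a stress-induced chromatin protein, rose by 3.65 ± 0.39 in KHM-5M from under 1 CPM and changed by 0.11 ± 0.17 in TTA-1 from 21.4 to 41.3 CPM. VEGFA, the endothelial growth factor, went from 80.1, 67.1 and 77.1 CPM to 25.5, 24.7 and 22.6 CPM in KHM-5M and from 39.1, 37.7 and 38.1 CPM to 41.1, 40.4 and 40.0 CPM in TTA-1. PLAU, the urokinase protease, fell from 441 to 450.2 CPM to 105 to 118 CPM in KHM-5M and changed by -0.12 ± 0.07 in TTA-1. WNT7B changed by -3.74 ± 0.13 and -0.39 ± 0.14. VEGFA, PLAU and WNT7B belong to lists that were mixed for the difference. Of 27 glycolysis and hypoxia genes, 3 were higher, 10 lower and 14 not called. The same counts were 1, 4 and 8 for 13 urokinase, protease and invasion genes, and 3, 4 and 8 for 15 WNT genes. Higher members included ALDOC (1.4 to 2.02 over the settings), ADAM19 (0.41) and DKK3 (0.68).

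Among the genes that rose in KHM-5M alone and had at least 5 CPM in both TTA-1 groups and in treated KHM-5M, with a TTA-1 interval within -0.5 to 0.5, the largest difference was that of IL7R, the interleukin-7 receptor alpha chain (ENSG00000168685, GRCh38 chromosome 5, 35852695 to 35879603). It stood at 8.01, 8.31 and 7.22 CPM with DMSO and at 83.1, 90.9 and 94.8 CPM with GDC-0994 in KHM-5M. In TTA-1 it stood at 272, 297 and 291 CPM and at 285, 282 and 296 CPM. Treated KHM-5M thus lay between its own controls and the TTA-1 level, and the 95% interval of the TTA-1 change was -0.15 to 0.15. The difference was 3.51 ± 0.11 (edgeR adjusted p = 4.10e-12).

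CITED2, a transcription regulator that binds CBP and p300, was at 74, 66.1 and 67.4 CPM and then 644, 579.5 and 582 CPM in KHM-5M, and at 66.9, 53.6 and 55.1 CPM and then 60.8, 54.5 and 57.8 CPM in TTA-1. SYNPO, the actin-associated synaptopodin, was at 45, 46.9 and 47.4 CPM and then 349, 304 and 287 CPM in KHM-5M, and at 21.6, 13.5 and 18.9 CPM and then 20.1, 19.5 and 18.2 CPM in TTA-1. For each gene the 3 treated KHM-5M libraries stood alone above the other 9. The epithelial sodium channel subunit SCNN1A changed by 2.74 ± 0.17 and -0.08 ± 0.14, and the surface protein mesothelin, MSLN, by 2.68 ± 0.22 and -0.02 ± 0.15. TGFB2, a ligand of the TGF-beta family, changed by 2.79 ± 0.11 and 0.25 ± 0.11, and VSIR, the immune checkpoint protein VISTA, by 2.38 ± 0.11 and -0.08 ± 0.11. In all, 1534 genes rose in KHM-5M alone with a median change of 0.72 there and -0.01 in TTA-1, and 2217 fell with medians of -0.79 and 0.01. For 2895 of the 3751 the 95% interval of the TTA-1 change lay within -0.5 to 0.5, and for the rest it reached past 0.5 in size. Membership of this class varied more than its size. Without TTA-1 DMSO replicate 2, 3012 of the 3751 stayed in it, and with sample quality weights in limma voom 2384 did.

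Of 25 NRF2 targets and ferritin genes, 12 were higher and 1 lower in KHM-5M, beside 12.3% and 15.6% of all genes tested. FTL, the ferritin light chain, went from 3910.0, 3894 and 4042 CPM to 12668, 12081 and 11462 CPM in KHM-5M and from 5218, 4398 and 4907 CPM to 5021, 4894 and 4432 CPM in TTA-1. The 1 lower gene was GCLM, described below. AKR1C3, an aldo-keto reductase, rose in both lines, by 2.24 ± 0.07 and 0.46 ± 0.06. Of 28 lysosome and autophagy genes, 14 were higher and 2 lower, with SQSTM1, the autophagy receptor p62, at 1.06 ± 0.06 and 0.02 ± 0.06 and the sialidase NEU1 at 1.32 ± 0.08 and 0.28 ± 0.07.

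Of 15 FOXO and insulin feedback genes, 7 were higher and 1 lower, beside 12.3% and 15.6% of all genes tested, at medians of 1.22 and 0.06. TXNIP, a thioredoxin inhibitor, went from 41.2, 41.5 and 48.9 CPM to 234, 231 and 201 CPM in KHM-5M and from 33, 36.6 and 39.4 CPM to 39.9, 40.0 and 38.2 CPM in TTA-1, while FOXO1 itself changed by -1.42 ± 0.13 and 0.08 ± 0.12. The pro-death BCL2 family gene BMF rose in both lines, from 6.29 to 10.6 CPM up to 159 to 193 CPM in KHM-5M and from 1.18 to 2.33 CPM up to 3.87 to 4.41 CPM in TTA-1, with a difference of 3.20 ± 0.32. BCL2L11, which encodes BIM, changed by 1.69 ± 0.11 and 0.21 ± 0.10, and the pro-survival gene BCL2 by -2.03 ± 0.15 and 0.13 ± 0.13. Each of these rises and falls in KHM-5M was called. The family did not move as a group. Of 11 pro-death genes tested, 4 had a higher change in KHM-5M, 2 a lower one and 5 were not called for the difference. The lower ones were BID and BAD, with differences of -0.48 and -0.75. Of 4 pro-survival genes tested, BCL2 was the 1 lower gene and 3 were not called.

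Of 19 YAP and TEAD targets, 11 were higher and 3 lower, at medians of 0.60 and -0.08. Over all genes tested 12.3% were higher and 15.6% lower, so the lower share was near the background. AJUBA, a LIM protein of the Hippo pathway, changed by 1.38 ± 0.07 and 0.13 ± 0.07. CTGF, a standard member of the same list, fell in both lines, by 1.37 and 0.59 on the log2 scale, and was one of the 3 lower genes, so CYR61 and CTGF did not move together in KHM-5M. Of 19 epithelial genes, 9 were higher and 1 lower. ELF3, an epithelial ETS factor, changed by 4.16 ± 0.27 in KHM-5M from under 1 CPM and by 0.25 ± 0.18 in TTA-1, and CLDN1, a tight junction claudin, was the lower one at -0.84 ± 0.10 and -0.01 ± 0.09. Of 27 mesenchymal and matrix genes, 7 were higher, 3 were lower and 17 were not called, so the lower share was again near the background. In KHM-5M 10 of the 27 rose and 10 fell, and 49.8% of all genes tested changed there in either direction. The median difference was 0.03. CDH2 and ZEB2 were called lower, with differences of -0.59 and -0.64. The markers VIM and FN1, at -0.24 and 0.01, were not called for the difference. FN1 averaged 3904 CPM with DMSO and 5506 CPM with the drug in KHM-5M, and 1.73 and 2.42 CPM in TTA-1. Its difference thus rests on a low TTA-1 level and does not show that FN1 stayed level in KHM-5M. Some mesenchymal markers did rise beside the epithelial genes. COL1A1, a collagen chain, averaged 704 CPM with DMSO and 1816 CPM with the drug in KHM-5M, and its difference was 1.12 (edgeR adjusted p = 2.58e-04). The receptor PDGFRB averaged 29.8 and 95.5 CPM, with a difference of 1.00 (edgeR adjusted p = 0.0436). In TTA-1 COL1A1 averaged 2.82 and 3.35 CPM and PDGFRB 0.8 and 1.29 CPM, so both differences rest on low TTA-1 levels. The part of COL1A1 and PDGFRB in the epithelial changes was not tested. Of 21 BMP and TGF-beta signalling genes, 7 were higher and 3 lower, beside 12.3% and 15.6% of all genes tested, so the lower share was near the background. The receptor TGFBR1 changed by 1.68 ± 0.12 and 0.01 ± 0.13, and its partner TGFBR2 by -1.29 ± 0.08 and -0.10 ± 0.09.

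Of 16 thyroid differentiation genes, 7 were tested. For the difference 2 were higher, 2 lower and 3 not called, beside 12.3% higher and 15.6% lower of all genes tested. The median difference of 0.35 ran from -0.16 to 0.61 over the alternative settings, so the list did not move as a group. DIO2, the deiodinase that makes active thyroid hormone, was at 0.113, 0.231 and 0.115 CPM and then 2.64, 2.43 and 3.74 CPM in KHM-5M, and at 406, 446 and 417 CPM and then 446, 425 and 422 CPM in TTA-1. Its KHM-5M controls rested on a few reads, so the size of that rise is uncertain. THRB, a thyroid hormone receptor, changed by 2.08 ± 0.12 and 0.08 ± 0.11, and PAX8 by -0.81 ± 0.09 and 0.02 ± 0.15. In the interferon list 24 of 31 rose and 2 fell in KHM-5M, and 5 rose and 0 fell in TTA-1, at medians of 0.63 and 0.23. GDC-0994 changed 49.8% of all genes tested in KHM-5M and 3.43% in TTA-1, in either direction. At an unadjusted edgeR p below 0.05, 14 rose and 0 fell in TTA-1, and the share of all genes at that threshold was not counted. For the difference 7 were higher, 4 lower and 20 not called. Over all genes tested 12.3% were higher and 15.6% lower, so the lower share was near the background. STAT2 changed by 1.10 ± 0.10 and 0.23 ± 0.10, and OAS3, which fell in KHM-5M, by -1.15 ± 0.08 and 0.18 ± 0.08. Of 22 cholesterol synthesis genes, edgeR called 2 higher and 1 lower for the difference, and DESeq2 called 6 higher and 1 lower.

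**Figure D4:**
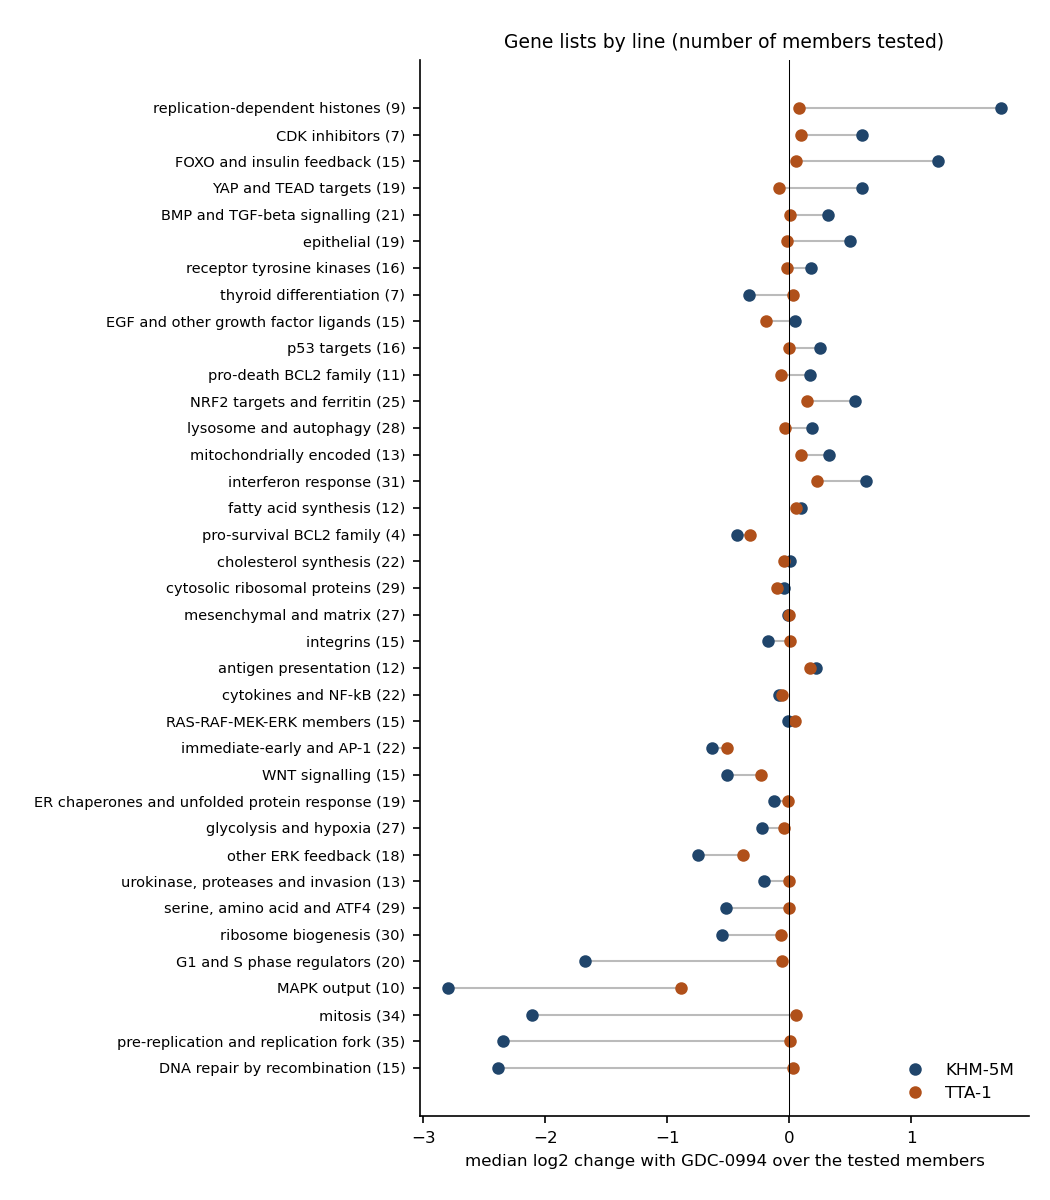
Median log2 change with GDC-0994 over the tested members of each of 37 gene lists, in KHM-5M (dark blue) and TTA-1 (brown), ordered by the median difference. TTA-1 medians lie between -0.51 and 0.23 apart from the MAPK output list at -0.89, while KHM-5M medians run from -2.80 for MAPK output to 1.74 for histones.

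The genes that moved in TTA-1 alone were few, and most fell. Of the 82, 63 fell with a median change of -0.59 and 19 rose with a median of 0.57, 68 were protein coding, and for 58 the 95% interval of the KHM-5M change lay within -0.5 to 0.5. ITGA2, the integrin alpha 2 collagen receptor, was at 54.2, 73.9 and 60.5 CPM with DMSO and at 24.2, 22.9 and 19.9 CPM with GDC-0994 in TTA-1. In KHM-5M it was at 23.8, 27.6 and 22.9 CPM and at 16.2, 22.6 and 27.6 CPM. The TTA-1 groups were far apart and the KHM-5M groups overlapped, with a change of -1.49 ± 0.16 in TTA-1 (edgeR adjusted p = 2.88e-05), -0.17 ± 0.16 in KHM-5M (edgeR adjusted p = 0.414) and a difference of 1.32 ± 0.23 (edgeR adjusted p = 2.77e-04). Of 15 integrins tested, ITGA2 among them, 5 fell and 1 rose in TTA-1, where 3.43% of all genes tested changed. In KHM-5M, where 49.8% of all genes tested changed, 6 integrins fell and 6 rose. For the difference 5 were higher, 2 lower and 8 not called, beside 12.3% higher and 15.6% lower of all genes tested. ITGA6 fell in both lines, by 1.43 in KHM-5M and 0.49 in TTA-1. ITGB1 changed by 0.33 ± 0.07 and -0.16 ± 0.07, and its difference was called higher, as that of ITGA2 was.

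ANPEP, the cell surface aminopeptidase N, was at 66, 47.6 and 66.7 CPM and then 32.8, 30.9 and 29.5 CPM in TTA-1, and at 127, 133 and 134 CPM and then 131, 122 and 116 CPM in KHM-5M. PPP1R13L, the p53 inhibitor iASPP, was at 74.4, 51 and 61.5 CPM and then 37.4, 39.5 and 36.5 CPM in TTA-1, and at 67, 66.5 and 63.7 CPM and then 80.2, 71.3 and 69.5 CPM in KHM-5M. In TTA-1 the lowest control of each gene was replicate 2, and it still lay above the treated libraries. The differences were 0.85 ± 0.15 for ANPEP and 0.89 ± 0.15 for PPP1R13L, and both kept the class in all 12 leave-outs. PROSER2 changed by -0.69 ± 0.11 in TTA-1 and 0.13 ± 0.12 in KHM-5M, EPG5, an autophagy tethering factor, by -0.58 ± 0.10 and 0.19 ± 0.10, and the sulfotransferase CHST2 by -0.84 ± 0.19 and 0.07 ± 0.15. DKK1, a secreted WNT antagonist, was at 322, 356 and 307 CPM and then 236, 222 and 234 CPM in TTA-1, and between 9.4 and 13.2 CPM in all KHM-5M libraries.

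Rises in TTA-1 alone were fewer. NRP1, the co-receptor neuropilin-1, was at 40.1, 45.7 and 40.4 CPM and then 67.1, 57.8 and 62.6 CPM in TTA-1, and at 98.8, 105 and 106 CPM and then 102, 103 and 109.5 CPM in KHM-5M. EPB41L3, a protein 4.1 family linker of membrane and cytoskeleton, was at 162, 167 and 168 CPM and then 225, 222 and 226 CPM in TTA-1, and at 123, 125 and 116 CPM and then 109.8, 111 and 107 CPM in KHM-5M. For each gene the treated TTA-1 libraries lay above their controls, while in KHM-5M neither change was called. The change was 0.57 ± 0.08 for NRP1 and 0.44 ± 0.06 for EPB41L3 in TTA-1, and -0.15 ± 0.06 for EPB41L3 in KHM-5M (edgeR adjusted p = 0.0568). TMCC3 changed by 1.05 ± 0.18 in TTA-1 from under 3 CPM. GCLM, the modifier subunit of the enzyme that starts glutathione synthesis, was at 375, 511 and 409 CPM and then 620.4, 597 and 622 CPM in TTA-1 and at 40.0 to 49.9 CPM in all KHM-5M libraries. Its difference of -0.49 ± 0.15 (edgeR adjusted p = 0.0192) was called in 8 of 12 leave-outs, and that of PEG10, at -0.30 ± 0.10, in 3. The median GC content was 57.3% for the 63 genes that fell and 44.7% for the 19 that rose, and 60 of the 82 stayed in the class with the GC and length trend removed.

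**Figure D5:**
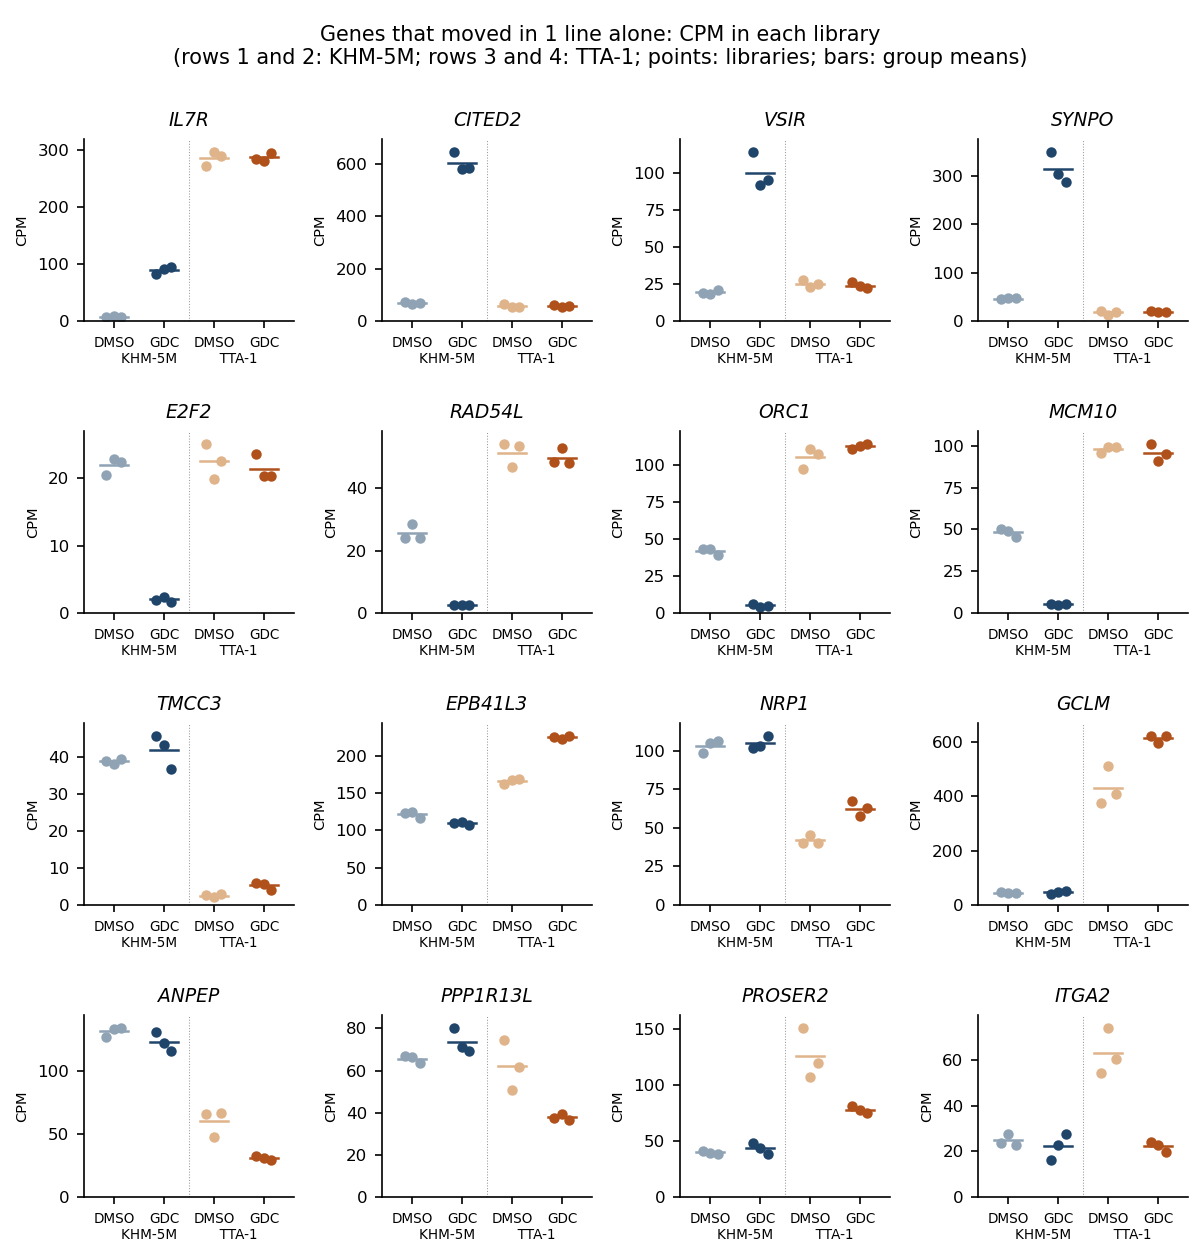
CPM in each library for 8 genes that moved in KHM-5M alone (upper 2 rows) and 8 that moved in TTA-1 alone (lower 2 rows); points are libraries, bars are group means and each vertical axis starts at 0. IL7R rises from about 8 CPM to 83.1 to 94.8 CPM in KHM-5M and stays at 272 to 297 CPM in TTA-1, and ITGA2 falls from 54.2 to 73.9 CPM to 19.9 to 24.2 CPM in TTA-1 alone.

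The 170 genes that moved in the same direction by unequal amounts comprised 65 that rose, with median changes of 1.48 in KHM-5M and 0.54 in TTA-1, and 105 that fell, with medians of -1.74 and -0.70. SLCO4A1, an organic anion transporter, was at 67.3, 63.8 and 65.6 CPM and then 2.48, 1.94 and 2.21 CPM in KHM-5M, and at 72.5, 59.2 and 65.4 CPM and then 40.0, 46.9 and 39.1 CPM in TTA-1. From like starting levels it fell far lower in KHM-5M, with a difference of -4.24 ± 0.16. Of the 8 genes that moved more in TTA-1, KCNJ12, an inward rectifier potassium channel, was at 16.3, 15 and 15.7 CPM and then 4.8, 4.68 and 5.46 CPM there, and at 7.78, 8.54 and 8.54 CPM and then 5.85, 5.59 and 4.91 CPM in KHM-5M. The lines thus met at a like level with the drug, at a difference of 1.05 ± 0.18 (edgeR adjusted p = 3.35e-04). PODXL, the surface sialomucin podocalyxin, changed by -0.97 ± 0.06 in TTA-1 and -0.37 ± 0.06 in KHM-5M, and ANTXR2, an anthrax toxin receptor, by -1.41 ± 0.08 and -0.90 ± 0.08. These 3 genes fell more in TTA-1, while 4169 of the 4527 unequal responses were larger in KHM-5M.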

How the data were processed

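Poly-A selected RNA of the 12 libraries was sequenced, and per the submitters' processing notes CASAVA, HISAT2 2.0.5, featureCounts 1.5.0-p3 and GRCh38 were used. Their roles and settings are not given in the sources used here. The deposited count table holds raw whole-number counts for 58735 genes, of which 26222 had none. Their IDs and positions matched GENCODE 29. The deposited FPKM values, which the authors made from these counts by gene length and library size, were used only in alternatives, as log2(FPKM + 1) or log2(FPKM + 0.1).

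The counts went into edgeR 4.0.16 (R 4.3.3): filterByExpr (minimum count 10, minimum total 15), TMM scaling, and quasi-likelihood tests in 1 model of 4 group means with 8 residual degrees of freedom. The contrasts were GDC-0994 minus DMSO in each line and the difference of these effects, with Benjamini-Hochberg adjustment over 16218 genes. A gene was called at an adjusted p below 0.05. The fit was tested on simulated counts of 16218 genes, with changes set in the treated KHM-5M libraries only. It called 60 of 100 genes with a log2 difference of 1 and 85 of 100 with 2, with 11 false calls. Opposite changes and changes in TTA-1 alone were not simulated. Alternatives used DESeq2 1.42.0 and limma 3.58.1, other scalings and filters, a GC and length correction, a replicate block, and each library left out.

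Classes follow the calls of the 3 contrasts, and the higher group of each line had to average at least 1 CPM. Named genes are protein coding, without overlap between treated and control libraries in each line whose call the class uses: the 8 with the largest smaller effect in each opposite direction (at least 2 CPM), the 8 largest differences in each direction for genes that moved in 1 line alone (at least 5 CPM, 95% interval in the other line within 0.5 of 0), the 5 largest in each same-direction group, the MAPK output genes, and up to 2 members of each list per direction. Some genes that this rule takes are not reported here. The members and gene lists were chosen with earlier results of these data known. Lists are described by counts and medians beside the same over all genes.

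Promoter sequences are from RefSeq (GRCh38.p14), matched by symbol for 10865 of 13255 protein-coding genes tested. Sets matched under 80% are not given.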

Additional observations from a re-analysis of the deposited data

Results flagged for a closer look

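The difference of effects between the lines was tested with edgeR, and the values are given for the 16 named genes whose changes went in opposite directions. These genes were taken from classes defined by that call, so it was fixed by the choice that all 16 were called. On the log2 scale, as the KHM-5M change minus the TTA-1 change, it was 2.51 for NANOS1, 2.22 for FAM84B, 2.12 for CDKN1A, 1.70 for ALS2CL, 1.49 for TMEM102, 1.43 for C1QTNF1, 1.40 for TPGS1 and 1.28 for DNAJC4. It was -3.81 for STC1, -1.88 for COBLL1, -1.84 for MT-ATP8, -1.73 for SYNE2, -1.45 for HSD3B7, -1.33 for RPS23, -0.81 for MRPL41 and -0.67 for SAMHD1. Of these, CDKN1A, MT-ATP8 and RPS23 kept both calls and the class with each library left out.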

How the results depend on the processing

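Counts are given in the order difference, TTA-1 effect, opposite up in KHM-5M, opposite down in KHM-5M, TTA-1 alone and same direction, beside 4527, 556, 38, 24, 82 and 170 from the model of all libraries. Leaving out 1 library gave 3768 to 5186, 259 to 2620, 16 to 256, 9 to 148, 29 to 437 and 98 to 465. DESeq2 gave 917 for the TTA-1 effect, 78, 43 and 131 for the next 3 counts. With the GC and length trend removed these were 1014, 88, 64 and 137, with 335 in the same direction. Quality weights in limma voom gave 8752, 5958, 543, 758, 782 and 1456. Without a filter on low counts there were 1206 TTA-1 genes, 92 opposite up in KHM-5M, 204 in TTA-1 alone and 262 in the same direction. An adjusted p below 0.01 gave 2920, 235, 8, 8, 32 and 78, and a size of at least 1 gave 1739, 116, 21, 16 in TTA-1 alone, 86 in the same direction, 2598 for KHM-5M and 1282 in KHM-5M alone. The cause was not tested beyond what each setting removes. The replicate block gave 4225 for the difference, 39 and 19 opposite, 93 and 144. Deviations from the group means correlated across genes at -0.096 to 0.177 for same-numbered treated and control libraries of a line. For differently numbered ones they correlated at -0.29 to 0.296. These values show no pairing by number but cannot exclude one, since libraries also stood apart in base composition. The labels give 1 column name to all 3 KHM-5M GDC-0994 libraries, whose numbers were matched through the titles, and the block depends on that match. Omitting both TTA-1 DMSO replicates 1 and 2 (4210 genes, 1 library left in that group) and thinning to the smallest total (4475) were chosen after seeing the data. All 174 named genes kept their direction in the 28 settings, and 92 were called in every one. Depth limits genes under 1 CPM in a line.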
